A study of Drosophila melanogaster with 6 samples.

Results

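The peaks described here are the sites on the X chromosome at which the authors called enrichment of GAF (GAGA factor, the product of the gene Trl) by ChIP-seq, the sequencing of immunoprecipitated chromatin, in Drosophila melanogaster embryos. They are all 1372 peaks whose sequence name is X, out of 11713 in the list (11.7%; 95% Wilson interval 11.1 to 12.3). The 4569 peaks on the autosomal arms 2L, 3L and 3R served for comparison. The study made 3 libraries of GAF ChIP DNA, made with the rabbit polyclonal antibody KW3-Trl-D2, and 3 libraries of input DNA, which is chromatin sequenced without immunoprecipitation. All 6 came from embryos 8 to 16 h old, fixed in 1.8% formaldehyde for 15 min, of the strain that the labels call Y cn bw sp. ChIP and input shared the genotype, which carried oc[R3.2] and y[1], then sp[1], bw[1], CG33964[R4.2], cn[1], Gr22d[1] and Gr22b[1], and also Rh6[1], GstD5[1], MstProx[1], lab[R4.2] and LysC[1]. Embryos from flies kept in cages were used whole and pooled, and their sex is not stated in the labels.

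GAF is a BTB-domain zinc finger protein that binds GA-rich sequence at promoters, enhancers and Polycomb response elements and helps to keep these sites free of nucleosomes. It is known for its roles at heat shock and Hox genes and at paused promoters. The X of the fly is carried as a single copy by males and as a pair by females, and in males its genes are transcribed at a raised rate by the dosage compensation machinery. Sequence coordinates of X run from the telomere, called the distal end, towards the centromere, called the proximal end.

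The list gives each peak a position on FlyBase release 5 and a score. The score is the authors' own value, its scale is not given in the sources used here, and higher means a stronger call in the same list. Because there is 1 list for all libraries, no value has a replicate error and no difference below was tested. Intervals cover counting error only, and neighbouring peaks are not independent of each other. Where X lay outside the range of the 3 autosomal arms, that is stated as a description. Males carry a single X, and the sex of the pooled embryos is not stated. The part of X copy number in any difference from the autosomal arms was not tested.

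GAF peaks were spread over nearly the whole X at the same mean density as on the autosomal arms. There were 61.2 peaks per Mb of span on X (95% Poisson interval 58.0 to 64.5), against 60.6 on 2L, 3L and 3R together (58.8 to 62.3). The single arms gave 58.9 on 2L, 64.0 on 3L and 58.9 on 3R. Span means the distance between the outermost peaks of an arm and was 22.4 Mb on X. Peaks covered 1069 kb of X, which is 4.77% of its span, against 5.01% on the 3 arms together. The arms covered 4.84% on 2L, 5.13% on 3L and 5.03% on 3R, so X lay just below their range.

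The scores on X held more intermediate values, and fewer at either extreme, than those on the autosomal arms. Of the X peaks, 657 scored from 20 to under 300, a share of 47.9% (95% Wilson interval 45.3 to 50.5), against 41.5% of the peaks on 2L, 3L and 3R (40.0 to 42.9). The single arms had shares of 42.7% on 2L, 41.9% on 3L and 40.0% on 3R, all below X. The difference of 6.43 percentage points had an interval of 3.43 to 9.44, obtained by combining both Wilson intervals. This range of scores was chosen after its values were seen, which the interval does not allow for.

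At the weak end, 346 X peaks scored under 20, a share of 25.2% (23.0 to 27.6), against 29.2% on the 3 arms (27.9 to 30.6). In the whole list 27.4% of peaks scored under 20. At the strong end, 369 X peaks scored 300 or more, a share of 26.9% (24.6 to 29.3), against 29.3% on the 3 arms (28.0 to 30.6) and 24.4% in the whole list. A score of 1000 or more was given to 85 X peaks, or 6.20% (5.04 to 7.60), against 7.84% on the 3 arms (7.09 to 8.65). Single arms ranged from 7.45% on 3L to 8.27% on 3R in that class, again all on 1 side of X. The intervals of X and of the 3 arms together met for the 2 strong classes and were apart for the scores under 20.

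Of the score classes in the intermediate range, those from 50 to 200 differed most. Scores from 50 to 100 made up 12.1% of the X peaks and 9.65% of the autosomal peaks. Scores from 100 to 200 made up 11.7% on X and 9.15% on the autosomal arms. Between 200 and 300 the shares were 5.98% on X and 6.04% on the arms, and between 500 and 1000 they were 12.1% on both. These classes were chosen after their values were seen.

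**Figure D1:**
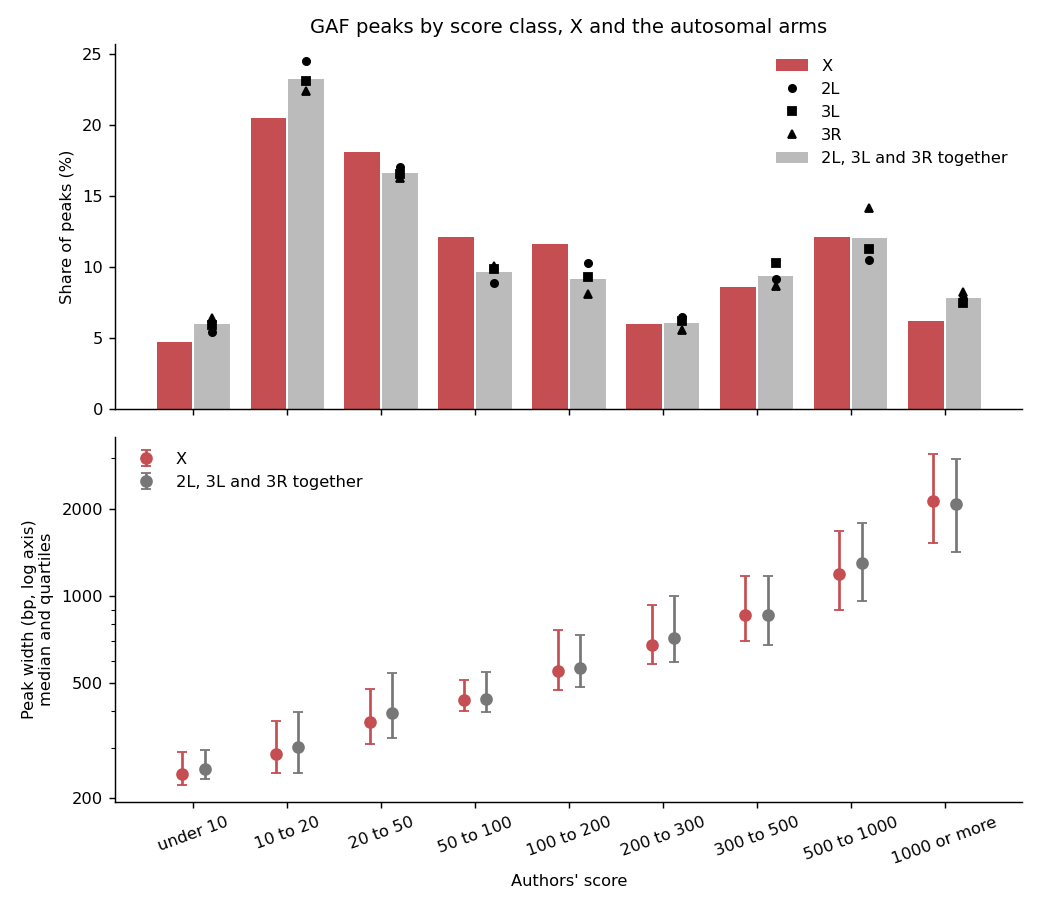
The upper panel plots the share of peaks (%) in each class of the authors' score, for X (red bars), for 2L, 3L and 3R together (grey bars) and for each of these arms (symbols); the lower panel plots the median peak width (bp, log axis) in each class, with lines from the lower to the upper quartile. X has larger shares from 50 to 200 and smaller shares under 20 and at 1000 or more, while widths in the same class lie close together, for example medians of 2132 bp on X and 2079.5 bp on the autosomal arms at scores of 1000 or more.

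Width followed score on X as it did on the autosomes. Peak widths on X ran from 200 to 21540 bp, with quartiles of 334 and 887 bp. The median width was 243 bp for scores under 10, 438.5 bp for scores from 50 to 100, 860 bp for scores from 300 to 500 and 2132 bp for scores of 1000 or more. On 2L, 3L and 3R together these medians were 253, 443, 859 and 2079.5 bp. The Spearman rho of width and score was 0.844 across the 1372 X peaks, against 0.843 across the 4569 autosomal peaks. Width and score are outputs of 1 calling step.

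Broad peaks, taken as 2 kb or wider, were a smaller share of the peaks on X at that width. There were 77 of them on X, or 5.61% (4.51 to 6.96), against 7.55% on the 3 arms (6.82 to 8.35) and 4.81% in the whole list. Single arms had 7.68% on 2L, 6.75% on 3L and 8.21% on 3R. Part of the 2L count came from its densest pair of 100 kb windows, and without these the 3 arms had 7.31%. The difference between X and the 3 arms was -1.94 percentage points (interval -3.30 to -0.41). Among peaks scoring 300 or more, 72 of 369 on X were broad, or 19.5% (15.8 to 23.9), against 23.5% on the 3 arms (21.3 to 25.8). The difference in that class was -3.94 points (interval -8.34 to 0.93). The intervals of X and of the 3 arms met both in that class and over all peaks. At 3 kb or wider the shares were 2.26% on X and 2.74% on the 3 arms, a difference of -0.48 points (interval -1.32 to 0.55), with 2.29% on 2L.

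Broad peaks were nearly all strong, on X as on the autosomal arms. On the 3 arms 314 of 345 broad peaks scored 300 or more, or 312 of 327 without the densest pair of windows of 2L. Of the 77 on X, 72 scored 300 or more, and the median score of the 77 was 1052.13. The other 5 scored 30.29, 31.4, 128.31, 207.63 and 211.37, at widths of 2028 to 2553 bp. They lay at 2505147 to 2507542 (score 30.29), 7863460 to 7865487 (207.63), 10994294 to 10996469 (31.4), 13305093 to 13307421 (211.37) and 16317065 to 16319617 (128.31). The broad peaks held 268 kb, or 25.1% of all peak-covered bases on X. On the autosomal arms broad peaks held 29.3% of the covered bases, with 28.6% on 2L, 27.8% on 3L and 31.2% on 3R.

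The widest tail was as long on X as elsewhere. Widths of 5 kb or more were reached by 9 X peaks (0.656%) and 37 autosomal peaks (0.810%), and widths of 10 kb or more by 2 peaks on X and 2 on the 3 arms together. The widest X peak, 21540 bp at 3570321 to 3591860, was the widest of all 7429 peaks on the chromosome arms, and its score of 1609.62 was the fifth highest on X. The next, 12284 bp at 1834568 to 1846851 with a score of 1231.26, ranked 4 by width over the same peaks, which include those on 2R and on chromosome 4. The third, 9118 bp at 7584542 to 7593659 with a score of 1358.44, ranked 7. The other 7 of the 10 widest had 4903 to 6974 bp and scores of 778.83 to 1567.29. All of the 10 had another peak close by, at gaps of 83 to 4771 bp.

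**Figure D2:**
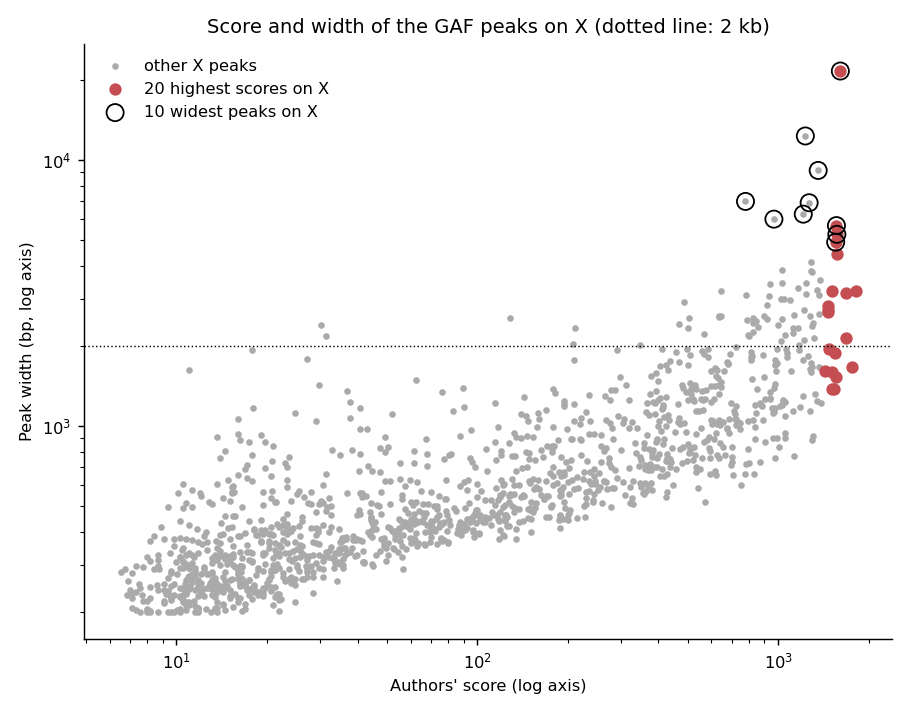
Each point is 1 of the 1372 X peaks, plotted by the authors' score (log axis) and peak width (bp, log axis); red points are the 20 highest scores, circles the 10 widest peaks, and the dotted line marks 2 kb. Width grows with score, 4 peaks belong to both marked sets, and the widest peak of 21540 bp stands above the rest.

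Along X, the fourth Mb had most peaks, and the last full segments before the proximal end had the fewest. In 22 full segments of 1 Mb, the number of peaks ran from 39 to 91 with a median of 60. The fourth segment, 3000001 to 4000000, had the 91, and the third and seventh had 82 each. The most distal segment had 50, below that median. The segments 20000001 to 21000000 and 21000001 to 22000000 had 39 and 42. Covered length followed the same course, with 87.6 kb in the fourth segment and at the other extreme 20.98 kb in a single segment.

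Weak peaks made up a larger share of the peaks in the distal 4 Mb than in the rest of X. In the first 4 segments, peaks scoring under 20 made up 44.0%, 37.0%, 35.4% and 37.4% of the peaks in order along the chromosome. In the later full segments this share ran from 11.3% in the segment from 18000001 to 34.5% in that from 14000001. The last, partial segment had 9 such peaks among 22, or 40.9%. Of the 297 peaks in the 4 Mb from the first X peak, 37.7% scored under 20, against 21.8% in the rest of X. The difference was 15.9 percentage points, with an interval of 10.0 to 22.1. The share scoring 300 or more was 26.9% in both, so the larger share of weak peaks was matched by a smaller share of intermediate ones. The median score was 38.69 in the distal stretch, against 81.16 in the rest. The limit of 4 Mb was chosen after these shares were seen on X, which the interval does not allow for.

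The autosomal arms had fewer peaks, and a smaller share of weak ones, in the 4 Mb next to the telomere. There were 74.2 peaks per Mb on X, against 64.0 on 2L, 64.2 on 3L and 58.5 on 3R. The share scoring under 20 in that stretch was 37.7% on X, against 28.5% on 2L, 24.9% on 3L and 31.6% on 3R. On 3R the stretch also exceeded the rest of its arm, which had 28.4%, while 2L and 3L had smaller shares in the stretch than elsewhere.

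Broad peaks were frequent in the same distal stretch. It held 25 of the 77 broad X peaks, or 32.5%, with 21.6% of all X peaks. Segments 2 and 3, 1000001 to 3000000, had 10 and 9 of them. Of the peaks in the stretch 8.42% were broad, against 4.84% in the rest of X. On 2L, 3L and 3R together the telomeric 4 Mb had 8.03% broad peaks, against 7.46% elsewhere. On 2L the telomeric stretch had 10.2%, against 7.10% in the rest of that arm, and held 26 of its 104 broad peaks, so X was not the only arm with more broad peaks there. The only other segment with 10 broad peaks was the eighth, 7000001 to 8000000, and segments 19, 22 and 23 had 0.

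**Figure D3:**
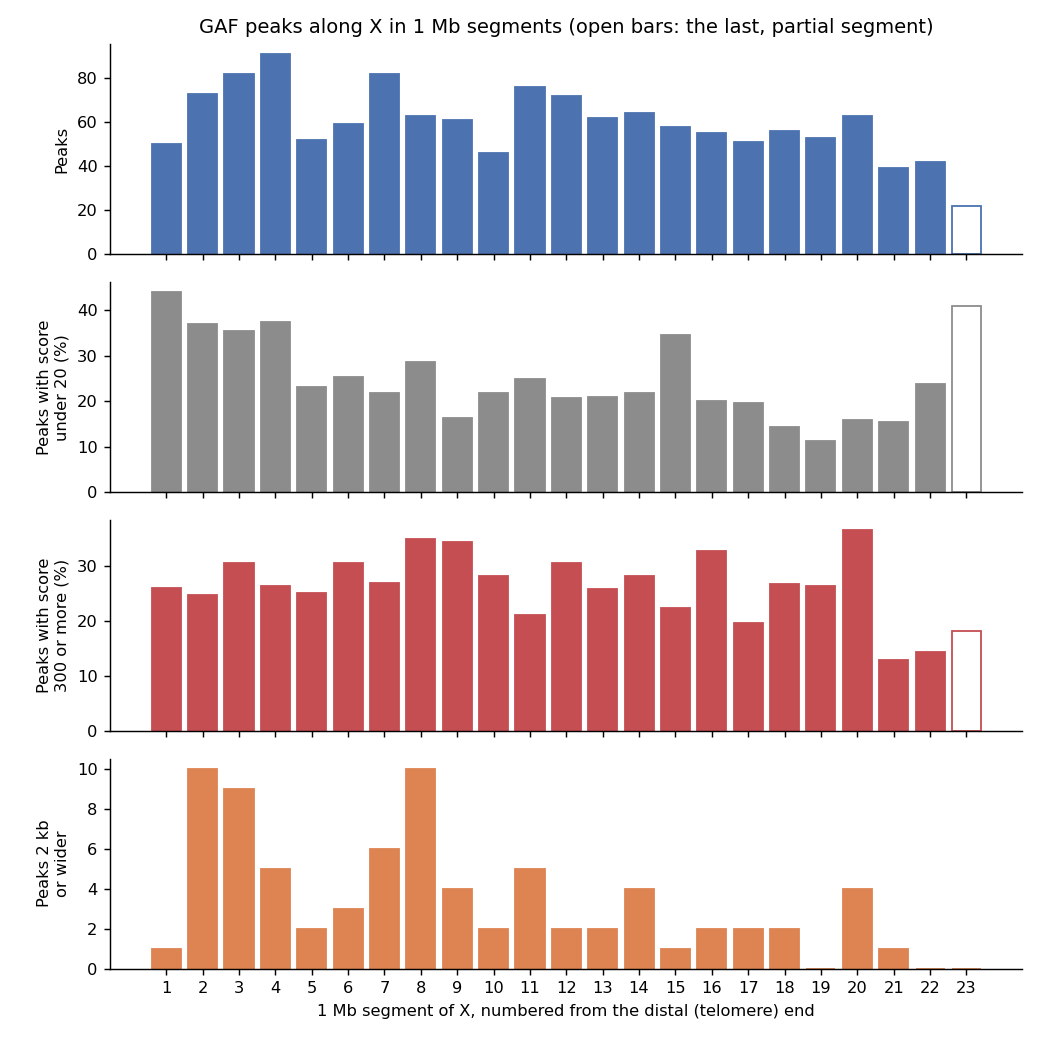
Bars give, for each 1 Mb segment of X from the distal to the proximal end, the number of peaks, the share of peaks scoring under 20 (%), the share scoring 300 or more (%) and the number of peaks 2 kb or wider; the last segment is partial. Weak peaks exceed 35% of the peaks in each of the first 4 segments, broad peaks collect in segments 2, 3 and 8 with 10, 9 and 10, and segments 21 and 22 have the fewest peaks of the full segments.

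The proximal end of X was poor in peaks, and strong peaks were a smaller share of those present. The last 2.5 Mb held 106 peaks, or 42.4 per Mb, against 63.6 per Mb in the rest of X, a ratio of 0.667 (interval 0.542 to 0.813). Only 14.2% of them scored 300 or more, against 28.0% in the rest, and 1 of the 106 was broad. The share scoring under 20 was 24.5% there and 25.3% in the rest. The length of 2.5 Mb was chosen after its values were seen, which the interval of the ratio does not allow for. The 2.5 Mb next to the centromere held 100.0 peaks per Mb on 2L, 72 on 3L and 54.8 on 3R. For the 3 arms together this was 64.2 per Mb without the densest pair of windows of 2L, which lie in that stretch, and 58.9 per Mb in the rest of the arms. The share scoring 300 or more next to the centromere was 16.8% on 2L, 15.6% on 3L and 32.1% on 3R. For the 3 arms together it was 20.1%, or 23.0% without the densest pair of windows of 2L, against 30.6% in the rest of the arms. The share of 2L alone was not computed without that pair. A lower share of strong peaks than in the rest of the arm was thus seen on X, on 3L and, with its densest windows counted, on 2L. A lower density of peaks was seen on X and 3R. Repeats or unsequenced bases in these stretches were not counted, and their part in the result was not tested.

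In windows of 100 kb, peak numbers on X varied within the range of the autosomal arms once the densest pair of windows of 2L was set aside. The 225 windows held a median of 5 peaks and at most 21, against a median of 5 and at most 57 on 2L, 34 on 3L and 27 on 3R. The variance of the window counts was 2.85 times their mean on X, against 5.52 on 2L, 3.65 on 3L and 2.76 on 3R. Without its densest pair of windows 2L also had a ratio of 2.85 and at most 21 peaks in a window. Windows with 10 or more peaks numbered 40 on X, or 17.8% (13.3 to 23.3), against 18.2% on the 3 arms (15.6 to 21.1). Windows with no peak numbered 5 on X, or 2.22% (0.953 to 5.10), against 2.91% on the 3 arms (1.93 to 4.36). The fullest 10% of the windows, 22 in number, held 24.2% of the X peaks, against 26.9% on the 3 arms together and 24.8 to 29.7% on single arms.

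Dense windows on X had about the same share of strong peaks as its other windows. The 523 peaks in windows with 10 or more included 27.0% scoring 300 or more, against 26.9% in the other windows of X. On the autosomal arms together the dense windows had 25.5%, against 31.9% elsewhere, with lower values in the dense windows on each of 2L (20.3 and 31.0%), 3L (25.5 and 32.4%) and 3R (29.2 and 32.4%). The values of 2L and of the arms together include the densest pair of windows of 2L. Setting that pair aside took the 3 arms from 4569 to 4471 peaks, but only from 1339 to 1333 scoring 300 or more. The shares in dense windows were not computed without it. Weak peaks were more frequent in the dense windows of X too, at 31.0% scoring under 20, against 21.7% elsewhere on X. Across the 225 windows the number of peaks and the number scoring 300 or more had a Spearman rho of 0.692, which describes counts of which one contains the other. No peak of 300 or more lay in 61 windows, or 27.1%.

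The fullest X window ran from 11600001 to 11700000 and held 21 peaks, 7 of them scoring 300 or more and 1 broad, with 14.1% of its length covered. The second, 1800001 to 1900000, differed in kind: it had 20 peaks with a median score of 15.55, of which 12 scored under 20, but 4 were broad and peaks covered 33.1% of it. The window 2200001 to 2300000 had 19 peaks with a median score of 24.39 and a highest score of 1684.64. The windows 2500001 to 2600000 and 3600001 to 3700000 had 18 each, with 5 and 7 scoring 300 or more. So 4 of the 5 fullest windows lay in the distal 4 Mb.

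The 20 strongest X peaks scored from 1428.11 to 1810.48 and lay between 413782 and 19577859, with none in the last 2.5 Mb. The strongest, at 8313544 to 8316746, was 3203 bp wide and ranked 24 by score over all chromosome arms, 2R included. It had few neighbours: 8 peaks lay within 100 kb of its centre, itself included, and a second strong broad peak of 3542 bp and score 1379.5 had its centre at -9.74 kb from that of the strongest. The second, at 16110486 to 16112149, scored 1763.05 at only 1664 bp. The third, at 2210930 to 2213061, scored 1684.64 at 2132 bp, and the fourth, at 19047084 to 19050241, scored 1674.62 at 3158 bp.

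A high score did not require a width of 2 kb. Of the 20, 12 were broad and 8 were narrower than 2 kb, down to 1374 bp at 9177505 to 9178878 and 1376 bp at 12096693 to 12098068. These narrowest 2 were also the only ones of the 20 with no other peak within 20 kb, centre to centre, their nearest neighbours being 20370 and 32257 bp away. Among all 85 X peaks scoring 1000 or more, 39 were under 2 kb, with a median width of 1374 bp. None of the 85 was narrower than 768 bp, against a median width of 505 bp for all X peaks. Of the 85, 7 had no other peak within 20 kb by the same measure, a share of 8.24%, against 9.18% of all X peaks and 4.05% of those scoring under 20.

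Several of the strongest and widest peaks lay side by side. Joining members of the 20 strongest and the 10 widest that were under 50 kb apart gave 3 groups of 2 or more, all of them in the distal 4 Mb. The first, 1834568 to 1886433, spanned 51.9 kb with 15 peaks, 4 of them broad, and was covered to 60.5%. The second, 2185986 to 2213061, packed 10 peaks into 27.1 kb, 4 of them broad with scores of 1267.64, 1553.24, 1463.25 and 1684.64, and was covered to 73.6%. The third, 3570321 to 3675407, spanned 105 kb with 21 peaks, 8 of them scoring 300 or more, and began with the widest peak. Farther along, 4 of the 20 strongest lay between 16042781 and 16454185, at gaps of 64894 to 224304 bp.

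Around the widest peak, strong and weak peaks were mixed on its proximal side, and weak ones stood alone on the distal side beyond a gap. Within 100 kb of its centre there were 39 peaks, 9 of them scoring 300 or more and 20 under 20. The peak itself was flanked within 204 bp by weaker ones scoring 34.97 and 16.55. Strong peaks followed it, first 1 scoring 1326.37 at 31.7 kb after its centre and then, from 53.5 to 60.8 kb, 3 scoring 1477.11, 1298.15 and 1242.15, and at 91.2 kb another of 6246 bp scoring 1211.97. On the distal side a peak at 3565927 to 3567191, centred 14.5 kb before the centre of the widest, scored 901.38. The gap of 53389 bp before it held no peak.

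Before that gap lay the longest run of weak peaks on X. From 3491748 to 3512537, 14 peaks scoring 8.19 to 24.74 followed each other at a median gap of 1090 bp, each 200 to 519 bp wide, over 20.8 kb. This run of scores under 50 with gaps under 5 kb was set off by 42240 bp without a peak on its distal side. The next longest such runs on X had 7 peaks each, at 3387310 to 3396184 and at 7021041 to 7028256. The longest runs on the autosomal arms had 10 peaks on 2L, 13 on 3L and 8 on 3R. Runs of 8 or more numbered 1 on X and 13 on the 3 arms, or 0.446 and 1.72 per 10 Mb, with 1.74 on 2L, 2.44 on 3L and 1.08 on 3R.

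**Figure D4:**
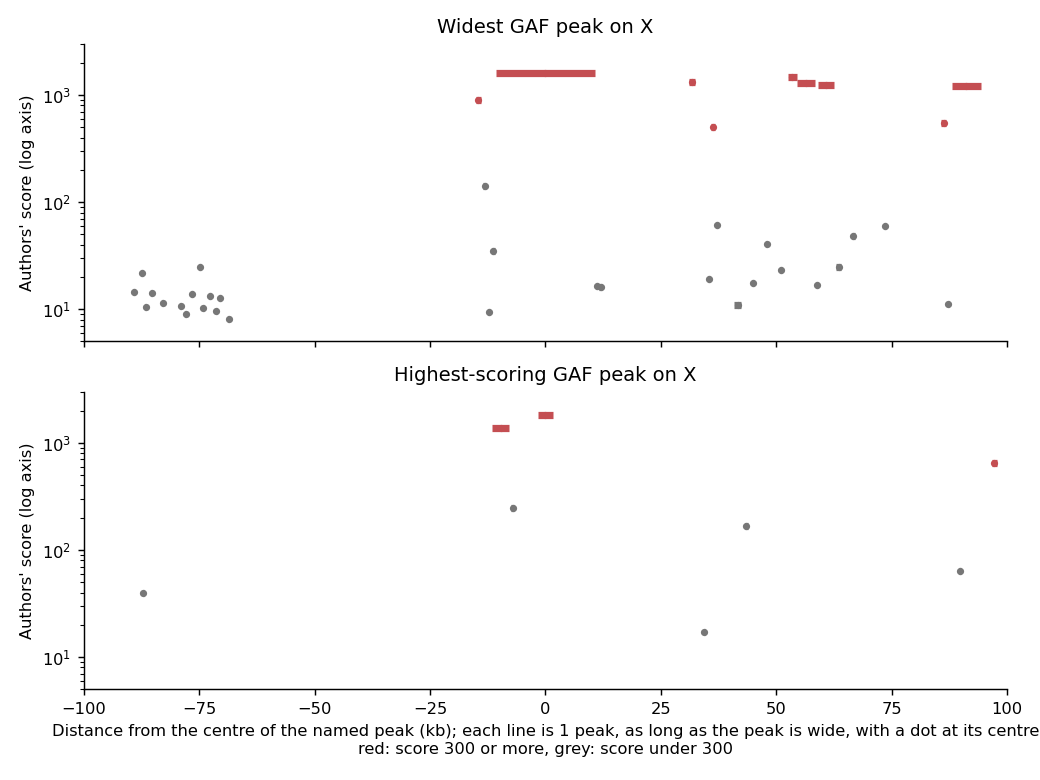
Each line is 1 peak, as long as the peak is wide, placed by its distance from the centre of the widest X peak (upper panel) or of the highest-scoring X peak (lower panel) in kb and by the authors' score (log axis); red marks scores of 300 or more. The upper panel holds 39 peaks, with the run of 14 weak ones at the left and broad strong ones to the right, and the lower panel holds 8.

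Peaks that nearly touch were less frequent on X. Of the 1371 gaps between neighbouring X peaks, 79 were under 0.2 kb, or 5.76%, against 8.41% on the 3 arms and 10.9% on 2L, 7.01% on 3L and 7.67% on 3R. The values of 2L and of the 3 arms in this class include the densest pair of windows of 2L. The class was not computed without that pair, and no interval was computed for it. Gaps under 1 kb made up 26.55% on X (24.3 to 29.0), against 29.5% on the 3 arms (28.2 to 30.8), or 28.5% without the densest pair of windows of 2L (27.2 to 29.8). For gaps under 1 kb the interval of X met both of the others. Gaps from 1 to 2 kb were more frequent on X, at 10.7% against 9.09%, so the shortage was in the shortest gaps. Chaining peaks under 1 kb apart placed 582 X peaks, or 42.4% (39.8 to 45.1), in 218 chains of 2 or more. The share was 46.3% of the autosomal peaks (44.8 to 47.7), or 45.3% without the densest pair of windows of 2L (43.8 to 46.8). The interval of X met both of these. Chains of 5 or more numbered 13 over the 22.4 Mb of X and 61 over the 75.5 Mb of the 3 arms, or 56 without that pair of windows.

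The share of weak peaks close to a strong one was lower on X than on each autosomal arm. Of the 346 peaks scoring under 20, 117 had a peak of 300 or more within 5 kb, centre to centre, or 33.8% (29.0 to 39.0), against 40.8% on the 3 arms (38.2 to 43.5). Single arms gave 38.2% on 2L, 38.2% on 3L and 45.6% on 3R. The interval of X met those of 2L, 3L and the 3 arms together, and lay below that of 3R (41.1 to 50.1). The median distance to the nearest strong peak did not follow that order, at 12421.5 bp on X, against 14735.5 bp on 2L, 8874.5 bp on 3L and 7145 bp on 3R. Strong peaks themselves numbered 16.5 per Mb on X, against 17.7 per Mb on the 3 arms, at median distances of 31727 bp and 34548 bp from one to the next.

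Chains differed in make-up. The longest on X, 10 peaks from 1863003 to 1875534, had 1 strong member scoring 1240.94 among peaks with a median of 15.55, and was covered to 74.0%. The next, 8 peaks from 7583808 to 7604711, had 4 strong members, among them the third widest X peak, and was covered to 91.1%. Its members of 300 or more scored 1358.44, 1289.58, 1028.92 and 900.26. The chain around the widest peak had 7 members from 3565927 to 3593354 and was covered to 94.5%. On the arms the longest chains had 15 peaks on 2L, in its densest windows, 14 on 3L and 9 on 3R.

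Long gaps were as frequent on X as on the autosomal arms. Gaps of 100 kb or more numbered 20 on X, or 8.92 per 10 Mb, against 10.9 on 2L, 7.74 on 3L and 9.68 on 3R. They took up 11.6% of the X span, against 14.2% on 2L, 10.1% on 3L and 12.3% on 3R. Of the 20, 6 lay beyond 19000000, towards the proximal end. The largest distance between neighbouring strong peaks on X was 511720 bp, against 441106 bp on the 3 arms.

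The longest gap ran for 180.5 kb from 7604712 to 7785240 and began right after the chain of 8 peaks described above, with a broad peak scoring 900.26 on its distal side and a peak of 1215 bp scoring 390.23 on the other. The second, 13358845 to 13518816, lay between peaks scoring 405.58 and 417.42. The third, 3844404 to 4001232, lay between peaks scoring 522.21 and 49.72. The fourth, 14377684 to 14531450, lay between weak peaks scoring 42.11 and 8.72. The other 6 of the 10 longest measured 125.8 to 148.7 kb.

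Peaks beside long gaps had a median score inside the interval of that of all X peaks. The 20 gaps were flanked by 39 peaks, 1 of them standing between 2 gaps. Their median score was 86.16, against 72.265 for all X peaks (62.24 to 86.72). Of the 39, 11 scored 300 or more, a share close to the 26.9% of all X peaks. In 16 of the 20 gaps a peak of 300 or more lay less than 20 kb beyond an edge. The exception that lay farthest was the gap from 21647285 to 21790841, with its nearest strong peak 102854 bp away. No such count was made at other places on X, so nearness to a strong peak cannot be called a trait of the gaps. Whether a gap coincides with repeats or unsequenced bases of release 5 was not tested.

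**Figure D5:**
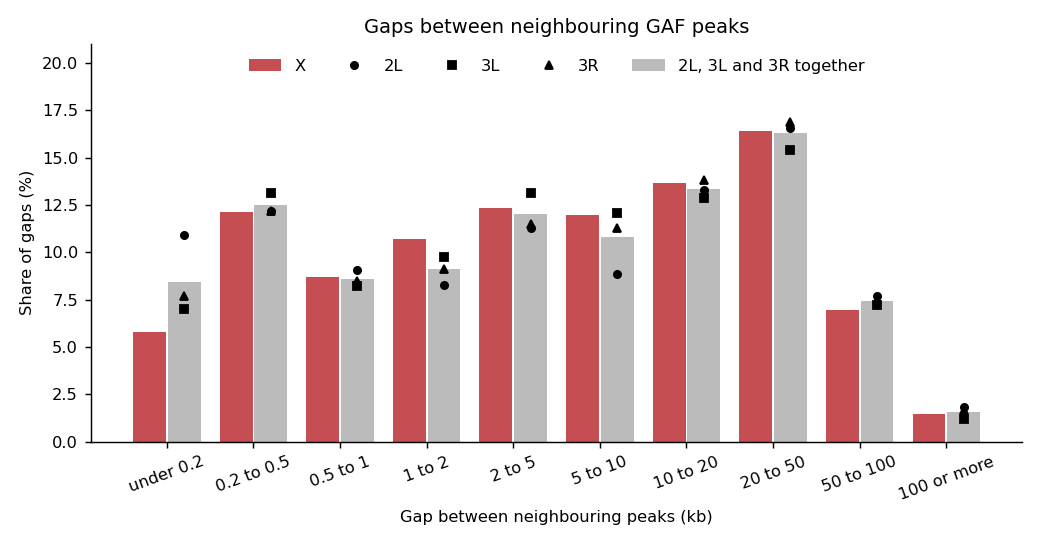
Bars give the share (%) of gaps between neighbouring peaks in each length class (kb), for X (red) and for 2L, 3L and 3R together (grey), with each of these arms as a symbol. X has the smallest share of gaps under 0.2 kb, 5.76%, and lies within the spread of the arms from 10 to 50 kb and at 100 kb or more.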

How the data were processed

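The deposited file is 1 GFF3 list of peaks for the whole series. Its header names FlyBase release 5 and its source column MACS. The submitters' processing notes list MACS2, BWA and CASAVA (versions 1.7.0.3 and 1.7.0.2), and the build BDGP5. The deposited score is 1 positive value per peak set by the authors. The sources used here give neither its scale, nor the calling threshold, nor how the 6 libraries entered the call, and the depth is unknown.

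Listed starts count from 0 and were printed counted from 1. Peaks were placed in windows by their midpoint. Shares carry 95% Wilson intervals, numbers per Mb Poisson intervals and medians binomial intervals. Intervals of differences and ratios combine those of both sides. The tools were scipy 1.17.1, pandas 2.3.3, numpy 2.4.6 and, for the plots, matplotlib 3.10.9 under Python 3.11.15. The counting steps were tested on simulated data.

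Named items are the 20 highest scores, the 10 widest peaks, the 5 fullest 100 kb windows, the 10 longest gaps and the 10 stretches of 10 kb with most covered bases. The members, classes and lists were chosen with earlier results of these data known. The distal 4 Mb, the proximal 2.5 Mb, the score classes, the chains and the weak runs were chosen after their values were seen. No gene or sequence is given, since no genome or annotation of release 5 was used here. Arm 2R served only as an alternative reference and, with chromosome 4, in the ranks over the chromosome arms.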

Additional observations from a re-analysis of the deposited data

How the results depend on the processing

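Over 18 results, 67 values under alternatives were computed, and 35 stayed within the interval of the reported value or, for a count, within 1.5 times. The rest follow. With scores at or above the list median, X had 31.7 peaks per Mb, a median score of 328.44, a median width of 814 bp and a median distance of 15283 bp. Its shares became 10.6% broad, 52.0% scoring 300 or more, 3.61% of the span covered, 2.22% dense windows and 10.7% empty windows, with 52 gaps of 100 kb or more. X minus the 3 arms became -58.8 in median score, -97.5 bp in median width and -4.13 points in broad peaks, and the distance ratio 0.842. With peaks under 500 bp apart joined, X had 50.3 peaks per Mb and medians of 99.38 (score), 572 bp (width) and 9278.5 bp (distance). Its shares became 10.7% broad, 30.5% scoring 300 or more, 5.07% covered and 7.11% dense windows, and the differences -19.6 in median score and -75 bp in width. So the median score of X was above that of the arms by 5.47 in the whole list (interval -7.27 to 21.3) and below under both settings. The interval of that difference was -38.7 to 3.87 with joining and -112.8 to -4.83 with scores at or above the list median. Only the last of these intervals left out 0. The distance ratio was 1.05 in the whole list (interval 0.872 to 1.21). It was below equality at 0.878 with joining (0.745 to 1.05) and 0.991 without the densest windows of 2L (0.824 to 1.15). Each of these intervals included equality, while that of the ratio of 0.842 was 0.707 to 0.990. The density ratio ran from 0.992 with 2R added to 1.05 with joining. Widths of 1.5 and 3 kb gave broad shares of 10.2% and 2.26% on X, and at 3 kb the interval of the difference from the arms, -1.32 to 0.55 points, included 0. Among scores of 300 or more the broad difference was -3.94 points, and its interval also included 0. With the number of peaks for a dense window scaled to its size, to 5 in 50 kb and 20 in 200 kb, windows of 50 kb gave 24.5% dense. Empty windows were 15.6% at 50 kb and 0% at 200 kb. Gaps of 75 and 150 kb numbered 58 and 4. Fewer peaks, fewer and larger units or another length account for the counts by construction; for the turned differences the cause was not tested. The differences in intermediate and distal weak scores and the proximal density ratio had no such value. No paired analysis was possible because peaks have a single score with no entry for each library, which also means that no fit without a replicate could be made. The alternatives for the difference in broad peaks, the intermediate scores and both chromosome ends were chosen after seeing the data. GAGAG content and transcription starts were not run, as no genome or annotation of release 5 was used here.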

Other observations

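The heterochromatic scaffold of X, listed as XHet, carried 8 further GAF peaks, which entered no comparison above. Their scores ran from 6.72 to 435.85 with a median of 26.1, and their widths from 200 to 753 bp. The strongest, from 20 to 772 at the start of the scaffold, was the only one to score 300 or more, and none was 2 kb or wider.

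In stretches of 10 kb, 1404 of 2243 on X (62.6%) held no base of a peak, and 21 were covered for 5 kb or more. The 10 fullest were covered by 61.9 to 100.0% and lay in 8 places. The pair from 3570001 to 3590000 is filled by the widest peak and the pair from 7580001 to 7600000 by the chain that precedes the longest gap. The stretches from 1840001, 1860001, 1880001, 2190001, 3630001 and 7950001 make up the rest.

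Scores on X took only 760 distinct values over 1372 peaks, and 872 peaks (63.6%) shared a score with another X peak. The most frequent value was 10.79, with 12 peaks. Ties reached the strongest calls: the peaks at 7950041 and at 13024426 both scored 1562.18, at widths of 5658 and 1532 bp, and those at 2199234 and 16042781 both scored 1463.25. Among the peaks of 300 or more, 106 of 369 shared a score. The list does not say how the score was rounded.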
